A study of Schizosaccharomyces pombe with 6 samples.

Results

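The 10 genes of the RNA interference (RNAi) machinery of the fission yeast *Schizosaccharomyces pombe* are described here in wild-type cells and in a histone H2B mutant. They were chosen by their symbols in the deposited gene table, which lists 5184 genes, and are *ago1*, *dcr1*, *rdp1*, *tas3*, *stc1*, *hrr1*, *cid12*, *arb1*, *arb2*, and *ers1*. All 10 were found in the table, and 9 had enough reads to be tested. In *htb1-K119R* cells, *dcr1*, *rdp1*, and *hrr1* rose, no member fell by the test, and the other 6 tested members did not pass it. The call on *hrr1* was lost in 10 of 18 alternative analyses, whereas those on *dcr1* and *rdp1* were kept in all 18. Of all genes tested, 18.6% were higher and 19.3% lower. Of those with transcripts of 4 kb or more, as *dcr1*, *rdp1*, and *hrr1* have, 46.7% were higher. The member with fewest reads was *stc1*, which was counted at most 44 times in a library.

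RNAi in *S. pombe* turns transcripts of the centromeric repeats into small interfering RNAs (siRNAs), which guide histone H3 Lys9 methylation and heterochromatin to the loci they come from. Argonaute (Ago1) carries the siRNA in the RITS complex, together with Tas3 and the chromodomain protein Chp1, and in the ARC complex, together with Arb1 and Arb2. The RDRC complex, made of the RNA-dependent RNA polymerase Rdp1, the helicase Hrr1, and the poly(A) polymerase-like protein Cid12, makes double-stranded RNA, and Dicer (Dcr1) cuts it into siRNAs. Stc1 links RITS to the H3 Lys9 methyltransferase complex CLRC, and Ers1 binds the heterochromatin protein Swi6 and helps to bring RDRC to heterochromatin.

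Polyadenylated RNA was sequenced in 3 wild-type (WT) and 3 *htb1-K119R* libraries (labelled H2BK119R), to relate gene expression to monoubiquitination of histone H2B. *htb1* is the only H2B gene of this yeast, and replacing Lys119 by Arg removes the residue that carries ubiquitin. The study's strain list gives the WT as strain TK8, h+ *ade6-M216 leu1-32 ura4-D18*, and the mutant as strain YGF226, h- *ura4-D18 htb1-K119R::kanMX6*. Each genotype is 1 strain, no treatment is listed, *ura4-D18* is common to both, and mating type, *ade6*, *leu1*, and the resistance cassette differ along with *htb1* and cannot be told apart from it. *ura4* was counted 0 times in each of the 6 libraries. *ade6* and *leu1* did not pass (log2 fold changes -0.01 and -0.48, adjusted *P* = 0.970 and 0.0812 in edgeR). In some alternatives 1 of both was lower, among them library totals and the fit without WT replicate 3, beside 8.11% and 27.6% of all genes. *htb1* was counted 24421, 24905, and 32936 times in WT against 28635, 25253, and 28199 times in the mutant, which shows that the gene was transcribed in both but does not show the substitution. *map2*, the gene of the P-factor pheromone of h+ cells, rose in the mutant listed as h- (3.22 ± 0.516 to 7.13 ± 1.36 CPM, mean ± SD, n = 3; CPM stands for counts-per-million after TMM scaling, adjusted *P* = 0.00241 in edgeR's quasi-likelihood test). The P cell genes *map1* (log2 fold change 0.39) and *map3* (-0.23) did not pass, and each mutant library of *map3* was below each WT library. Of the 4 M cell genes tested 0 passed, with log2 fold changes from -0.25 to 0.60, beside 18.6% of all genes higher and 19.3% lower. With the replicate block 1 of these 4 was higher, beside 20.6% of all genes. Without WT replicate 1, 2 of 6 were, beside 16.4%. The counts and FPKM of *map2* imply a transcript several times longer than its annotated 671 bases, and those of *map3* one longer than its 1758. These counts may therefore not stand for the pheromone and receptor transcripts alone. The counts of *map2* thus did not follow the listed mating types, and the genes as a set did not settle them. The summed level of 3 P cell genes (*map1*, *map2*, and *map3*) was 11.6 to 13.9 CPM in WT against 13.9 to 17.8 CPM in the mutant, and that of 6 M cell genes (*mfm1*, *mfm2*, *mfm3*, *mam1*, *mam2*, and *sxa2*) was 34.5 to 51.2 and 44.1 to 62.2 CPM. Their part in the results was not tested.

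Library totals ran from 15987167 to 20701391 counts, and 96 to 127 genes had no count in a library. In a principal component analysis the genotypes parted on the first axis (71.7% of the variance). WT replicate 3 lay alone on the second (17.5%), at -19.73 beside -3.45 to 11.45 for the other 5, so the changes of the members and of the lists are also given without this library. The methods describe independent biological repeats, and in such bulk RNA fewer cells that express a gene and less RNA per cell cannot be told apart. Of the 4969 genes tested, 924 were higher in *htb1-K119R* (18.6%) and 958 were lower (19.3%) at an adjusted *P* below 0.05 (quasi-likelihood test of edgeR, adjusted by the Benjamini-Hochberg method), with a median log2 fold change of -0.01. With an additional 2-fold limit these shares were 4.71% and 3.64%.

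The promoters of the 3 genes that rose are shown because they moved in the same direction. They were read from the RefSeq annotation of assembly ASM294v3 by gene ID. Each stretch runs from 250 bases before the annotated transcript start to 20 bases after it, 5′ to 3′ on the strand of the gene. Capitals mark matches, on either strand, to 6 short motifs, namely ACGCGT (MCB, bound by the cell cycle factor MBF), CAGTCACA (HomolD), GTAAACAAA (FLEX, bound by forkhead factors), TGACGT (the core bound by the stress factor Atf1), CCAAT, and TATAAA. The stretch of *dcr1* is chrIII:1510538-1510807 on the minus strand, that of *rdp1* is chrI:1324691-1324960 on the plus strand, and that of *hrr1* is chrIII:2029210-2029479 on the plus strand.
*dcr1*: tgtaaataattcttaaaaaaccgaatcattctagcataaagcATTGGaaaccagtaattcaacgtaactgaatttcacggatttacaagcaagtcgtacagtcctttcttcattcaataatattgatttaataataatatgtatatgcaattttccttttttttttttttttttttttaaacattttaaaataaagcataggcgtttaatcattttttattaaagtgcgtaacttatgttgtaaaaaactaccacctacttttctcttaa
*rdp1*: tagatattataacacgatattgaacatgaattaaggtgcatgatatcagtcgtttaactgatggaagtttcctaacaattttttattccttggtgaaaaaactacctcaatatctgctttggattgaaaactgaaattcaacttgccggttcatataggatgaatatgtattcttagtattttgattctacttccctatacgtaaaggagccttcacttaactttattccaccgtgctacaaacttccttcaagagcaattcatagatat
*hrr1*: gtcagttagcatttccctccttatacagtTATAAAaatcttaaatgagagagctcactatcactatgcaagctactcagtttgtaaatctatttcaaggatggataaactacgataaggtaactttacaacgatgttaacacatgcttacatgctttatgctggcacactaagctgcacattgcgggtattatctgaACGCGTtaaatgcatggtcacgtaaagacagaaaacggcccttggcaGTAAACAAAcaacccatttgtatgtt
The stretch of *hrr1* held an MCB motif with its first base at -53 from the start, a FLEX motif at -6, and a TATAAA at -221. That of *dcr1* held only CCAAT, read on the other strand with its first base at -208, with a run of T closer to the gene. *rdp1* held none of the 6. No motif was thus shared by all 3 promoters. In the window of 300 bases (to 50 bases after the start), MCB occurred in 3.25% of 5104 promoters, HomolD in 2.68%, FLEX in 5.76%, the Atf1 core in 5.92%, CCAAT in 42.22%, and TATAAA in 48.08%. Of the 10 members, *hrr1* was the one with MCB and with FLEX, *stc1* was the one with the Atf1 core, 3 held CCAAT (*arb2*, *dcr1*, and *tas3*), 6 held TATAAA (*ago1*, *arb2*, *cid12*, *ers1*, *hrr1*, and *stc1*), and none held HomolD.

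The members lie on all 3 chromosomes and away from the ends, from 334.1 kb (*ago1*) to 2309.0 kb (*arb2*) from the nearest one. Chromosome III held 5 of the 10, which were *ago1* (SPCC736.11, 334079 to 337070, plus strand, 2 exons), *ers1* (SPCC1393.05, 801158 to 804543, plus strand, 11 exons), *dcr1* (SPCC188.13c, 1504949 to 1510557, minus strand, 1 exon), *cid12* (SPCC663.12, 1655646 to 1660080, plus strand, 1 exon), and *hrr1* (SPCC1739.03, 2029460 to 2034205, plus strand, 4 exons). That chromosome holds 17.9% of 5105 protein-coding genes. Chromosome I held *rdp1* (SPAC6F12.09, 1324941 to 1329061, plus strand, 2 exons), *arb1* (SPAC140.03, 1899966 to 1901605, plus strand, 5 exons), and *arb2* (SPAC13G7.07, 2308983 to 2310294, plus strand, 6 exons). Chromosome II held *tas3* (SPBC83.03c, 1514006 to 1516179, minus strand, 1 exon) and *stc1* (SPBP8B7.28c, 3691008 to 3691915, minus strand, 1 exon). The transcripts of *dcr1* (5609 bases, of which 4125 code), *hrr1* (4615, of which 3000 code), *cid12* (4435, of which 1011 code), and *rdp1* (4041, of which 3648 code) were 4 kb or longer, as in 6.3% of protein-coding genes. These positions and lengths are those of ASM294v3, since the deposited table has no coordinates.

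*dcr1*, which encodes Dicer, had the largest change of the 9 members tested. It was counted 23, 46, and 117 times in replicates 1, 2, and 3 of WT against 191, 162, and 206 times in the mutant. These are 1.75, 3.30, and 4.83 CPM in WT against 8.98, 8.90, and 10.6 CPM in the mutant. Each mutant library was thus above each WT library, and the WT libraries differed more among themselves than the mutant ones did. The mean rose from 3.29 ± 1.54 to 9.50 ± 0.984 CPM (SD, n = 3), a log2 fold change of 1.47 (SE 0.282, adjusted *P* = 0.00253 in edgeR). Without WT replicate 3, the highest of the WT libraries, the log2 fold change was 1.90 (adjusted *P* = 1.16e-06). *dcr1* was the only member past the 2-fold limit.

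*rdp1*, the RNA-dependent RNA polymerase of RDRC, was counted 75, 68, and 153 times in WT against 211, 185, and 198 times in the mutant. Its levels were 5.69, 4.88, and 6.32 CPM in WT against 9.92, 10.2, and 10.2 CPM in the mutant, with no overlap and little spread in the mutant. The mean rose from 5.63 ± 0.720 to 10.1 ± 0.162 CPM (SD, n = 3), a log2 fold change of 0.83 (SE 0.159, adjusted *P* = 0.00254 in edgeR). Leaving out WT replicate 3 gave 0.93 (adjusted *P* = 0.000164).

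*hrr1*, the helicase of RDRC, was counted 113, 174, and 256 times in WT against 290, 298, and 308 times in the mutant. In CPM it stood at 8.58, 12.5, and 10.6 in WT and at 13.6, 16.4, and 15.9 in the mutant, so the groups did not overlap, but WT replicate 2 and mutant replicate 1 lay close together. The mean rose from 10.5 ± 1.96 to 15.3 ± 1.46 CPM (SD, n = 3), a log2 fold change of 0.53 (SE 0.162, adjusted *P* = 0.0251 in edgeR). The value was also 0.53 without WT replicate 3 (adjusted *P* = 0.00925). The call was lost without WT replicate 1 (0.41, adjusted *P* = 0.0690), without mutant replicate 2 (0.47, adjusted *P* = 0.0913), and without mutant replicate 3 (0.51, adjusted *P* = 0.0906).

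The remaining RDRC subunit gene, *cid12*, did not pass the test. It was counted 113, 169, and 227 times in WT against 207, 179, and 138 times in the mutant, or 8.58, 12.1, and 9.37 CPM and 9.73, 9.83, and 7.13 CPM. The libraries of both genotypes were interleaved, with WT replicate 2 highest and mutant replicate 3 lowest. On the log2 scale the change was -0.17 (SE 0.187, adjusted *P* = 0.502 in edgeR), and -0.22 without WT replicate 3 (adjusted *P* = 0.322).

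**Figure D1:**
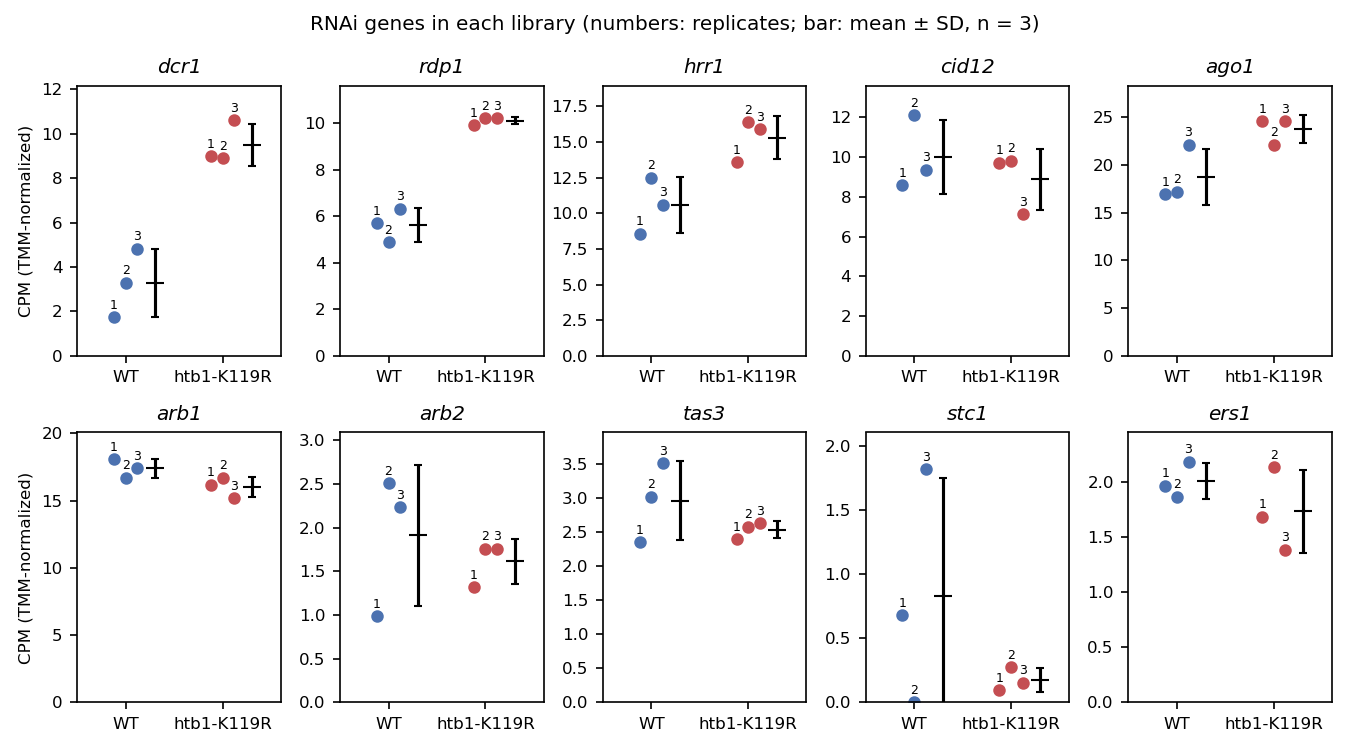
Normalized level of each of the 10 RNAi genes (vertical axis, CPM after TMM scaling, each panel with its own scale from 0) in the 3 WT and 3 *htb1-K119R* libraries, with points numbered by replicate and a bar for the mean ± SD (n = 3, lower end cut at 0 for *stc1*). In the panels of *dcr1*, *rdp1*, and *hrr1* all mutant points lie above all WT points, and in the other 7 panels the groups overlap.

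Among the Argonaute complexes, *ago1* was counted 223, 240, and 536 times in WT against 524, 403, and 477 times in the mutant. The levels were 16.9, 17.2, and 22.1 CPM in WT against 24.6, 22.1, and 24.6 CPM in the mutant, and the groups met at WT replicate 3 and mutant replicate 2, which were both at 22.1 CPM. On the log2 scale the change was 0.34 (SE 0.136, adjusted *P* = 0.0740 in edgeR), which missed the threshold. Without WT replicate 3 it was 0.48 (adjusted *P* = 0.00280), and with all 6 libraries and a replicate block 0.35 (adjusted *P* = 0.0405). After the correction for GC content and length it was 0.15 (adjusted *P* = 0.297). The call on *ago1* thus depended on this library and on the model.

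The ARC subunit gene *arb1* was counted 238, 232, and 421 times in WT against 345, 305, and 295 times in the mutant, or 18.1, 16.7, and 17.4 CPM and 16.2, 16.7, and 15.2 CPM. Its groups overlapped narrowly, with a change of -0.11 on the log2 scale (SE 0.118, adjusted *P* = 0.482 in edgeR). *arb2*, the other ARC subunit gene, had few reads, with counts of 13, 35, and 54 in WT against 28, 32, and 34 in the mutant. WT replicate 1 was the lowest library at 0.987 CPM and WT replicate 2 the highest at 2.51 CPM, with the mutant libraries at 1.32, 1.76, and 1.76 CPM between them (log2 fold change -0.27, SE 0.344, adjusted *P* = 0.559). *tas3*, the RITS subunit that bridges Ago1 and Chp1, was counted 31, 42, and 85 times in WT and 51, 47, and 51 times in the mutant (2.35, 3.02, and 3.51 CPM against 2.40, 2.58, and 2.63 CPM). The mutant libraries fell within the WT range, with a change of -0.24 on the log2 scale (SE 0.232, adjusted *P* = 0.437). Without WT replicate 3 the log2 fold changes of *arb1*, *arb2*, and *tas3* were -0.11, -0.14, and -0.09, and none passed.

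*ers1* was counted 26, 26, and 53 times in WT against 36, 39, and 27 times in the mutant, or 1.97, 1.87, and 2.19 CPM and 1.69, 2.14, and 1.39 CPM. WT replicate 3 was highest, mutant replicate 3 lowest, and the groups overlapped (log2 fold change -0.22, SE 0.269, adjusted *P* = 0.552 in edgeR, and -0.14 without WT replicate 3).

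*stc1* had too few reads for the test. Its counts were 9, 0, and 44 in replicates 1, 2, and 3 of WT against 2, 5, and 3 in the mutant, which is 0.683, 0, and 1.82 CPM against 0.0940, 0.275, and 0.155 CPM. A count of 0 in WT replicate 2 allows up to 0.215 CPM (3 counts, counting error only), which is above mutant replicates 1 and 3, so the lowest library cannot be told. WT replicate 3 was the highest. When genes of low count were kept, the log2 fold change was -2.38 (adjusted *P* = 0.0773 in edgeR) and that of DESeq2 was -2.29 (adjusted *P* = 0.0713). It passed only without WT replicate 2 (-2.90, adjusted *P* = 0.00954), and the fits without WT replicate 1 or 3 did not keep it past the filter on low counts.

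Of the 9 members tested, 3 were thus higher against a background of 18.6% of all genes tested, and 0 were lower against 19.3%. In edgeR the unadjusted *P* of the 5 members with a negative log2 fold change ran from 0.320 to 0.443, so that 0 were lower at an unadjusted *P* below 0.05, and DESeq2 and limma on log2(FPKM + 1) also called 0 lower. In 1 alternative each, 1 member was lower, namely *cid12* after the correction for GC content and length with a replicate block (adjusted *P* = 0.0105) and *stc1* without WT replicate 2 (adjusted *P* = 0.00954). The median log2 fold change of the 9 was -0.11, with a range from -0.27 to 1.47, beside -0.01 for all genes tested. In 3 members each mutant library was above each WT library, as in 25.0% of all genes tested. Without WT replicate 3, *ago1* joined *dcr1*, *rdp1*, and *hrr1*, which made 4 members higher, beside 26.4% of all genes in that fit. The count was 2 without WT replicate 1, without mutant replicate 2, and without mutant replicate 3, beside 16.4%, 14.4%, and 11.8% of all genes. It was also 2 with library totals (16.4% of all genes), in limma (17.9% to 18.9%), and after the correction for GC content and length (19.0% to 19.3%).

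Levels can be set side by side between genes only per length, for which the deposited FPKM values (fragments scaled to transcript length and to library size) were used. In WT the order of mean FPKM was *arb1* (10.9 ± 2.17), *ago1* (7.02 ± 2.56), *cid12* (2.15 ± 0.482), *hrr1* (2.10 ± 0.563), *arb2* (1.54 ± 0.774), *tas3* (1.31 ± 0.503), *rdp1* (1.24 ± 0.390), *stc1* (mean 0.947, from 0.573, 0, and 2.27 in the 3 libraries), *ers1* (0.653 ± 0.184), and *dcr1* (0.590 ± 0.382; SD, n = 3). The step from *ago1* to *cid12* was the one between neighbours whose libraries did not overlap. Against a median of 10.8 FPKM over all genes, *arb1* stood at the percentile of 50.2, *ago1* at 41.8, and the other 8 members at 5.8 to 19.7. The transcripts of Argonaute and its ARC partner Arb1 thus had the highest levels of the machinery, and the Dicer transcript had the lowest mean of the 10.

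In *htb1-K119R* the order was *arb1* (11.2 ± 0.730 FPKM), *ago1* (9.77 ± 1.08), *hrr1* (3.37 ± 0.152), *rdp1* (2.45 ± 0.109), *cid12* (2.14 ± 0.400), *dcr1* (1.80 ± 0.199), *arb2* (1.41 ± 0.161), *tas3* (1.22 ± 0.0416), *ers1* (0.624 ± 0.117), and *stc1* (0.184 ± 0.0967; SD, n = 3). *arb1* and *ago1* overlapped, as did *rdp1* with *cid12*, *cid12* with *dcr1*, and *arb2* with *tas3*, whereas the other neighbours were separate. *dcr1* moved from the percentile of 5.8 to 14.3, *rdp1* from 12.7 to 19.2, and *hrr1* from 19.3 to 25.0.

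Ratios between members within a library do not depend on how libraries are scaled, and 5 were compared. The ratio of *rdp1* to *cid12* FPKM, both of RDRC, was 0.670, 0.405, and 0.679 in WT against 1.03, 1.04, and 1.45 in the mutant, so that *rdp1* went from below *cid12* to above it in FPKM. Annotated length enters FPKM, and of the 4435 bases of *cid12* 1011 code, so which of both genes stood higher depends on that annotation. That of *hrr1* to *cid12* was 0.924, 0.947, and 1.04 in WT against 1.29, 1.53, and 2.05 in the mutant. By these FPKM values the RDRC subunit transcripts stood in another proportion in the mutant libraries, a difference that the test given below could not establish.
The ratio of *dcr1* to *ago1* was 0.0473, 0.0891, and 0.101 in WT against 0.168, 0.186, and 0.199 in the mutant, which is 2.33 times higher by the means. *rdp1* to *ago1* was 0.199, 0.168, and 0.169 in WT against 0.238, 0.272, and 0.246 in the mutant, and *dcr1* to *rdp1* was 0.238, 0.532, and 0.598 in WT against 0.706, 0.685, and 0.810 in the mutant. In all 5 the groups did not overlap. Each numerator was a member called higher, so this separation is not independent of those calls. The share of all gene pairs that part in this way was not computed. Each gave *P* = 0.1 in the exact two-sided permutation test (also 0.1 when adjusted over the 5 ratios), which is the smallest that 3 against 3 libraries allow, so none could pass 0.05. A ratio shows unequal change and does not show which of both genes moved.

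Transcript length moved with the change across all genes. The median log2 fold change was -0.28 in the 900 genes under 1 kb, -0.08 in 2100 genes of 1 to 2 kb, 0.09 in 1138 genes of 2 to 3 kb, 0.25 in 458 genes of 3 to 4 kb, and 0.42 in 317 genes of 4 kb or more. Of the last class 46.7% were higher and 6.31% lower in *htb1-K119R*. The 3 members that rose belong to this class, as does *cid12*, which did not. Lengths also set WT libraries apart, since the median log2 difference of WT replicate 3 from the mean of WT replicates 1 and 2 was -0.33 under 1 kb and 0.21 at 4 kb or more. After a correction for GC content and length, *dcr1* was at 1.04 (adjusted *P* = 0.00637) and *rdp1* at 0.54 (adjusted *P* = 0.0122), *hrr1* no longer passed (0.14, adjusted *P* = 0.561), and *cid12* was at -0.56 (adjusted *P* = 0.0528). The correction takes out any change that goes with length, whether it arose in the cells or in the libraries.

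**Figure D2:**
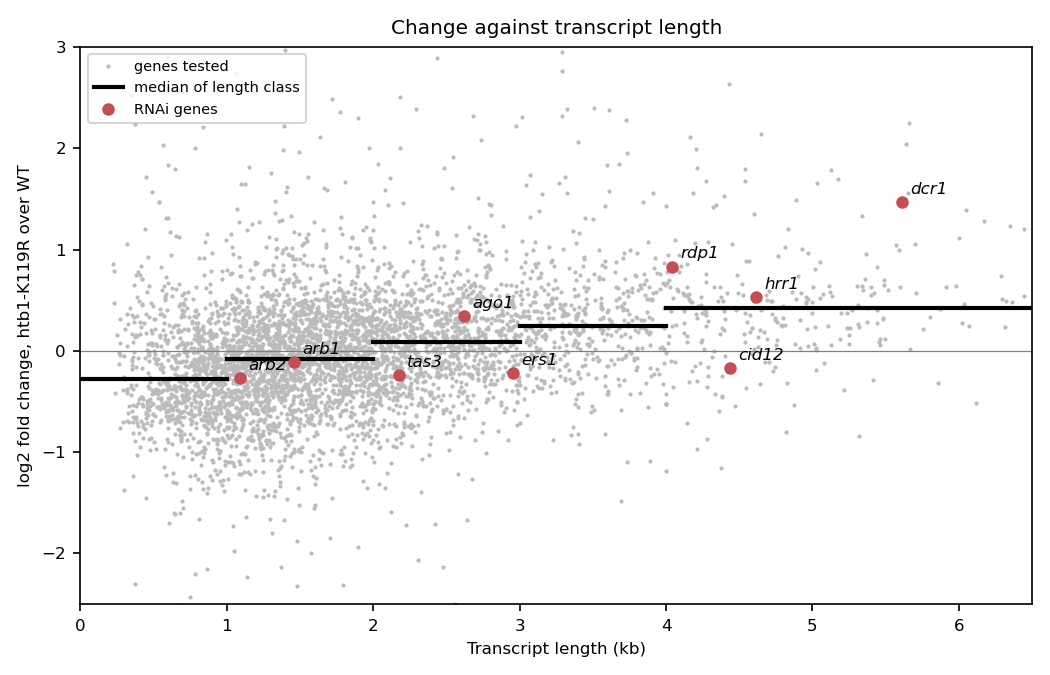
Log2 fold change of *htb1-K119R* over WT (vertical axis) against annotated transcript length in kb (horizontal axis) for the genes tested (grey), with the 9 RNAi genes tested in red and the median of each length class as a black line. Genes beyond the axis limits are not drawn. The medians climb from -0.28 to 0.42, with *dcr1*, *rdp1*, and *hrr1* above the line of the longest class and *cid12* below it.

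The members also overlap genes on the opposite strand, as 89.9% of protein-coding genes do in this annotation, and 6 of 10 overlap a protein-coding one, as 37.6% do. Whether the counting used strand is not given in the sources used here, so that reads from such pairs may not be told apart. *spn6*, a septin gene, lies to 97.0% (1903 bases) within *dcr1*. It was counted 38, 36, and 38 times in WT against 105, 66, and 101 times in the mutant and rose along with *dcr1* (log2 fold change 1.01, SE 0.271, adjusted *P* = 0.0146 in edgeR, and 0.75 without WT replicate 3). The mutant counts of *dcr1* were above those of *spn6* in each library, while in WT replicate 1 those of *spn6* were above those of *dcr1*.
*naa50*, an N-terminal acetyltransferase gene, lies wholly within *cid12* (657 bases) and fell, with counts of 394, 433, and 516 in WT against 250, 280, and 256 in the mutant (a change of -1.02 on the log2 scale, SE 0.168, adjusted *P* = 0.00105, and -1.19 without WT replicate 3). Its counts exceeded those of *cid12* in each of the 6 libraries, so its reads were not all counted to *cid12* as well. The counts of *trp663*, which also lies wholly within *cid12*, were 1 to 50, and it did not pass (-0.41, adjusted *P* = 0.625). *dms1*, of which 87.3% (1321 bases) lies within *hrr1*, had a log2 fold change of 0.07 (adjusted *P* = 0.807), while *hrr1* rose. *mug30* covers 92.7% of *stc1* and was counted 183 to 280 times in a library, with a log2 fold change of 0.03 (adjusted *P* = 0.882). The overlaps of *arb2* with *crb3* (24 bases, *crb3* at -0.07) and of *ers1* with *ipi1* (61 bases, *ipi1* at -0.29) were short, and neither neighbour passed. *rdp1*, *ago1*, *arb1*, and *tas3* overlap only non-coding RNAs.

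Other genes of the pathway were examined as lists by function. Among 4 siRNA pathway partners, 0 were higher and 0 lower in edgeR and in DESeq2, beside 18.6% and 19.3% of all genes tested in edgeR, with a median log2 fold change of -0.08. They were *chp1*, the chromodomain subunit of RITS (-0.10, adjusted *P* = 0.729), *dsh1*, which helps to hold RDRC and Dicer at the nuclear periphery (-0.55, unadjusted *P* = 0.0445 and adjusted *P* = 0.0951), *tri1*, an exonuclease that trims siRNAs (0.30, adjusted *P* = 0.157), and *nrp1*, also called *dri1* (-0.07, adjusted *P* = 0.660). *dsh1* was the one with an unadjusted *P* below 0.05, and it passed without WT replicate 1 (-0.70, adjusted *P* = 0.0456). In the fit without WT replicate 3, 0 of the 4 passed, with a median of -0.21, beside 26.4% of all genes higher and 27.6% lower.

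Of 6 genes of CLRC and HP1 proteins, which write and read H3 Lys9 methylation, 2 were higher and 0 lower, beside 18.6% and 19.3% of all genes tested, and the median log2 fold change was 0.41. *clr4*, the H3 Lys9 methyltransferase, rose from 16.6 ± 2.85 to 25.0 ± 2.02 CPM (SD, n = 3; log2 fold change 0.58, SE 0.144, adjusted *P* = 0.0105 in edgeR). *swi6*, an HP1 protein, rose from 20.6 ± 2.81 to 29.0 ± 0.803 CPM (0.49, SE 0.125, adjusted *P* = 0.0117). Both passed without WT replicate 3 (0.72 and 0.60), and *clr4* was at 0.17 after the correction for length and GC content (adjusted *P* = 0.255). With library totals and in limma on FPKM, 0 of the 6 passed, beside 16.4% and 17.9% to 18.9% of all genes higher. Without mutant replicate 1, 0 of the 6 passed, beside 11.6% of all genes higher, with *clr4* and *swi6* at 0.51 and 0.47 (adjusted *P* = 0.0555 and 0.0519).

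Nuclear RNA elimination removes meiotic and other unwanted transcripts through the exosome and acts beside RNAi at some loci. Of its 15 genes, 5 were higher and 0 lower, beside 18.6% and 19.3% of all genes tested, with a median of 0.33, and *air1* had the most negative value (-0.58, adjusted *P* = 0.0632). After the GC and length correction without the block, without WT replicate 1, and without WT replicate 2, 1 gene each was lower, beside 19.7%, 16.8%, and 12.7% of all genes. *air1* passed as lower without WT replicate 2 (-0.74, adjusted *P* = 0.0451 in edgeR). *rrp6*, a nuclear exosome exonuclease, was counted 13, 12, and 26 times in WT against 135, 133, and 165 times in the mutant, and rose from 0.974 ± 0.107 to 7.39 ± 1.09 CPM (SD, n = 3; log2 fold change 2.90, SE 0.232, adjusted *P* = 1.14e-05 in edgeR). This change was larger than that of any RNAi gene tested. *cid14*, the poly(A) polymerase of the TRAMP complex, changed by 1.25 (adjusted *P* = 0.00127), *mtl1*, a helicase of the elimination machinery, by 1.16 (adjusted *P* = 0.00113), *dis3*, an exosome nuclease, by 0.79 (adjusted *P* = 0.0135), and *iss10*, which binds the elimination factor Red1, by 0.27 (adjusted *P* = 0.0442). The calls on *dis3* and *iss10* were lost in 4 and 12 of 18 alternatives, and those on *rrp6*, *cid14*, and *mtl1* in none. Without WT replicate 3, 10 of the 15 were higher, beside 26.4% of all genes in that fit. The log2 fold changes were then 2.99 for *rrp6*, 1.28 for *cid14*, 1.12 for *mtl1*, 1.14 for *dis3*, and 0.24 for *iss10*, and these 5 passed.

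The telomere-linked helicase genes *tlh1* and *tlh2* lie in subtelomeric heterochromatin that RNAi helps to keep silent. *tlh1* was counted 10, 8, and 4 times in WT against 33, 37, and 56 times in the mutant, a log2 fold change of 2.25 (SE 0.479, adjusted *P* = 0.00468 in edgeR). *tlh2* was counted 7, 0, and 16 times in WT and 110, 116, and 98 times in the mutant (3.64, SE 0.460, adjusted *P* = 0.000204). Each mutant library was above each WT library in both, as in 25.0% of all genes tested, while 18.6% were called higher. The low-count filter kept both genes through their mutant libraries, so these calls are not independent of it. With at least 10 counts required in every library, and in limma with the FPKM filter, neither was tested. The 2 genes are near-identical copies, so the split of reads between them is uncertain, but their summed level was 0.574 to 1.29 CPM in WT against 6.72 to 8.40 CPM in the mutant. Without WT replicate 3 the log2 fold changes were 1.68 for *tlh1* and 4.38 for *tlh2*, and both passed, beside 26.4% of all genes higher in that fit.

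**Figure D3:**
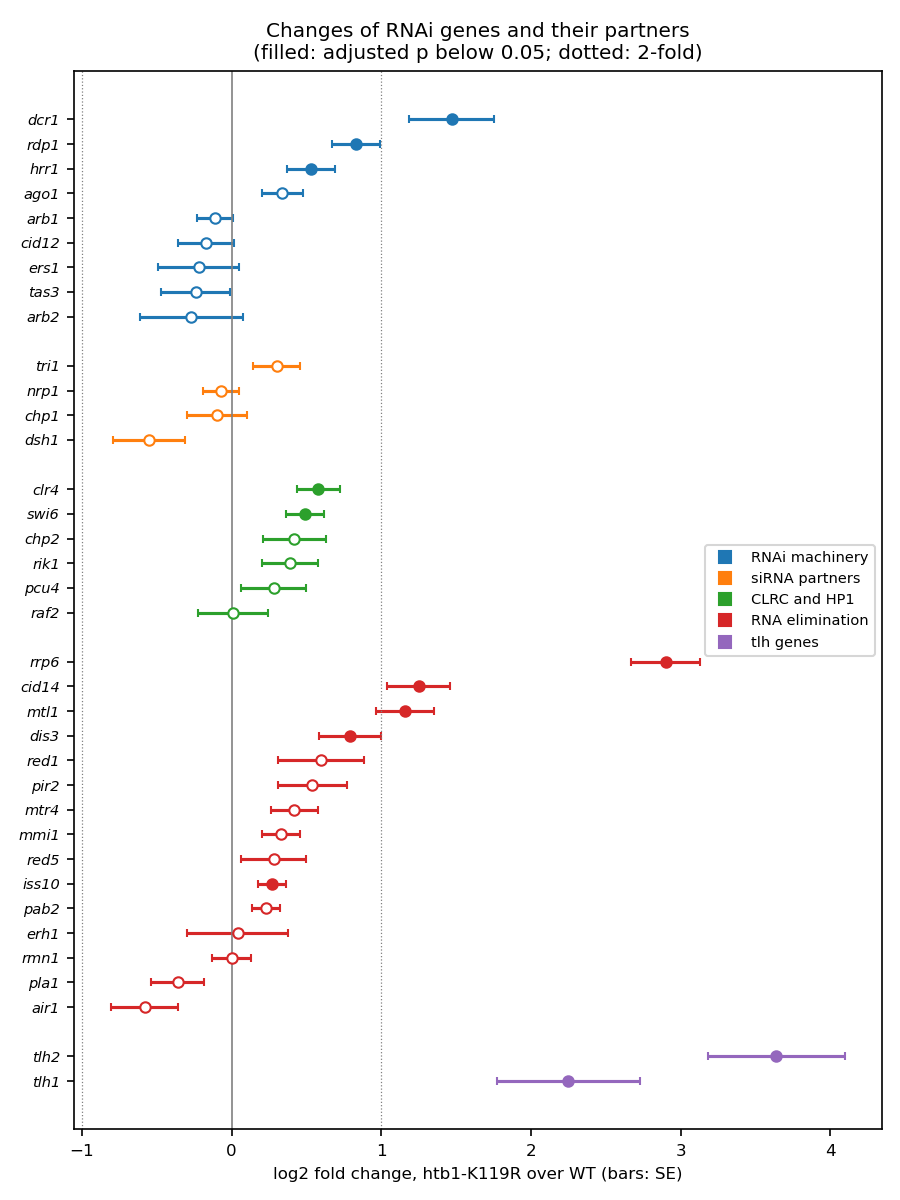
Log2 fold change of *htb1-K119R* over WT (horizontal axis, bars show the SE) for the 9 RNAi genes tested and the genes of the 4 related lists, coloured by list, with filled points for an adjusted *P* below 0.05 and dotted lines at 2-fold. *dcr1* is the one RNAi gene past the 2-fold line, at 1.47, and *rrp6* (2.90), *cid14* (1.25), *mtl1* (1.16), *tlh1* (2.25), and *tlh2* (3.64) also lie beyond it.

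The calls on the members were repeated under 18 alternatives of scaling, tool, filter, model, and libraries. *dcr1* passed in all 18, with log2 fold changes from 0.84 to 1.90, and so did *rdp1*, from 0.54 to 0.98. *hrr1* lost its call in 10 of 18, with values from 0.14 to 0.69. The negative values of *arb1*, *arb2*, and *cid12* became 0.06, 0.01, and 0.01 at most under alternatives without TMM or RLE factors, in which the median of all genes moved to at most 0.17.

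**Figure D4:**
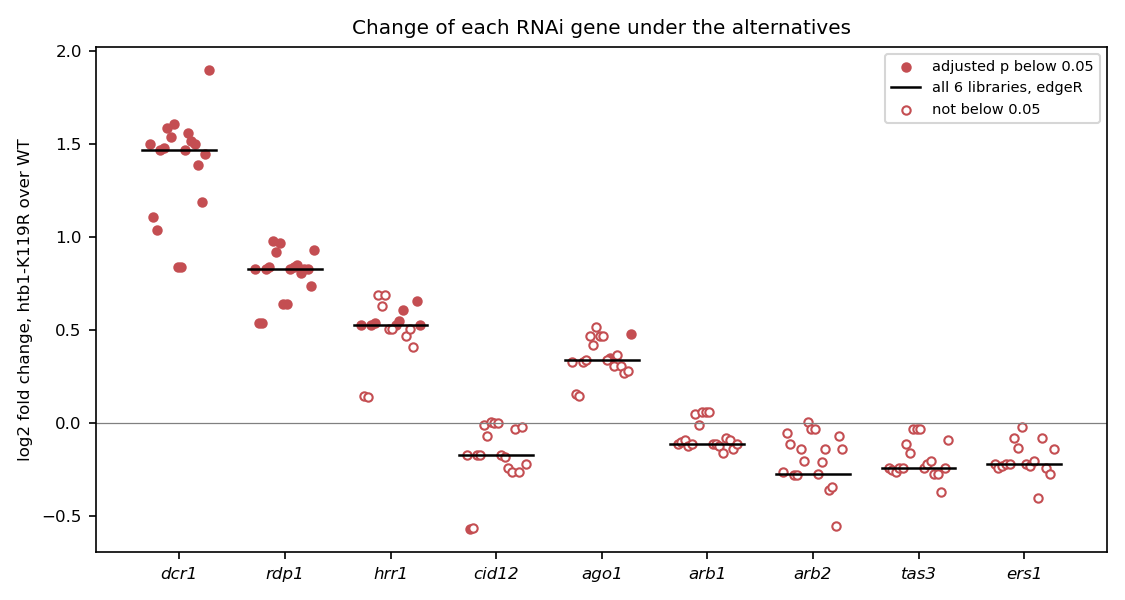
Log2 fold change of each of the 9 RNAi genes tested (vertical axis) under up to 18 alternatives (points, filled where the adjusted *P* was below 0.05), beside the value from all 6 libraries in edgeR (black line). All points of *dcr1* (0.84 to 1.90) and *rdp1* (0.54 to 0.98) are filled, whereas those of *hrr1* are filled in part.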

How the data were processed

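Polyadenylated RNA of 3 WT and 3 *htb1-K119R* libraries was sequenced by the authors on an Illumina HiSeq 2500, and reads were mapped to the genome of Ensembl release 45. The submitters' processing notes name fastp, Bowtie2, HISAT2, StringTie, RSEM, and DESeq2, without versions here. The deposited counts are whole numbers per gene and library, not normalized, and the counting tool is not given in the sources used here. The deposited FPKM values were computed by the authors per gene and library. Libraries were grouped by the sample labels. The deposited group means, fold changes, p-values, and FDR were not used, nor were 12 further columns of per-sample values, which repeat rows of the main table.

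Counts were fitted over the whole table with edgeR 4.0.16 in R 4.3.3 (TMM, filterByExpr, glmQLFit, and glmQLFTest) with genotype as the only factor, and p-values were adjusted by Benjamini-Hochberg over 4969 genes. Calls used an adjusted *P* below 0.05. SEs are those implied by the F statistic. Alternatives were RLE factors, library totals, DESeq2 1.42.0, no filter, at least 10 counts in every library, a replicate block, limma 3.58.1 on log2(FPKM + 1) and log2(FPKM + 0.1) where the mean FPKM reached 1, the former also unfiltered, lowess offsets (span 0.3) for GC content and length with and without the block, other thresholds, and leaving out each library. Totals that leave out the 100 most counted genes were an alternative chosen after seeing the data. Simulated data were used to test the methods.

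Gene IDs were matched to ASM294v3 (RefSeq) for 5109 of 5184 IDs (98.6%) and all 10 members. The assembly behind release 45 is not named, and the transcript lengths implied by counts and FPKM were 0.99 to 1.11 times those annotated for the members. Named genes are the 10 members, list genes called or with the 2 largest changes in their list, genes overlapping a member, *htb1*, and strain markers. Values of *chp1*, *nrp1*, and *air1* were known when these were added. One gene was left out of a list and is not reported here. After the values were seen, the pheromone receptor genes *mam2* and *map3* were moved to the list of the cell type that expresses each. The members and lists were chosen with earlier results of these data known. Intervals and floors cover counting error only.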

Additional observations from a re-analysis of the deposited data

How the results depend on the processing

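Among all genes, 958 were lower with TMM, 403 with library totals, 595 with totals without the 100 genes of highest count (added after the data were seen), and 449, 444, and 445 in limma on log2(FPKM + 1), on log2(FPKM + 0.1), and on log2(FPKM + 1) with no filter. In these the median log2 fold change of all genes was 0.15, 0.09, 0.15, 0.17, and 0.14. At an FDR below 0.01, 521 genes were higher and 522 lower, and with the 2-fold limit 234 and 181, with 1 RNAi gene higher (*dcr1*). Leaving out 1 library gave 2 to 4 RNAi genes higher and 0 to 1 lower, and 577 to 1319 of all genes higher and 570 to 1375 lower. The fewest higher came without *htb1-K119R* replicate 1 (577), the fewest lower without *htb1-K119R* replicate 3 (570), and the most without WT replicate 3. Without WT replicate 2, 591 were higher and 634 lower. The cause was not tested.

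Whether replicate numbers pair the samples was not settled. The deviations of same-numbered libraries correlated with r = -0.264, 0.421, and 0.287, and those of differently numbered ones with r from -0.538 to 0.383. Deviations from a group mean are tied to each other, so these values are not independent. With the replicate block 1026 genes were higher and 1002 lower, and 4 RNAi genes were higher and 0 lower, *ago1* being the fourth (0.35, adjusted *P* = 0.0405 in edgeR). The correction for GC content and length together with the replicate block gave 1 RNAi gene lower, *cid12* (-0.57, adjusted *P* = 0.0105), and 2 higher.

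*hrr1* did not pass with library totals (0.69), with totals without the 100 genes of highest count (0.63), in the 3 limma fits (0.51 to 0.69), with the GC and length correction (0.14) and with it and the block (0.15), or in 3 of the 6 fits without 1 library. No sign of a called gene among those named turned. *arb2*, *ers1*, and *tas3* had at most 85 counts in a library, with SEs of 0.232 to 0.344 on the log2 scale. That of *dcr1*, which was called, was 0.282.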

Other observations

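Genes of meiosis, some of whose transcripts nuclear RNA elimination removes in dividing cells, were also examined as a list of 6. *spo5*, a gene of spore formation, was counted 11, 15, and 29 times in WT against 60, 44, and 53 times in the mutant. It rose from 1.04 ± 0.185 to 2.66 ± 0.214 CPM (SD, n = 3; log2 fold change 1.33, SE 0.269, adjusted *P* = 0.00353 in edgeR, and 1.47 without WT replicate 3), with each mutant library above each WT library. The other 5 genes did not pass the test, and the median of the 6 was 0.39. Thus 1 of the 6 was higher and 0 lower, beside 18.6% and 19.3% of all genes tested. *dmc1* had the most negative value (-0.26, adjusted *P* = 0.177 in edgeR). Without WT replicate 3, 2 of the 6 were higher and 1 lower, beside 26.4% and 27.6% of all genes in that fit. The summed level of the list was 66.6 to 82.4 CPM in WT against 68.4 to 79.3 CPM in the mutant, so the sums of the genotypes overlapped. Most of each sum came from *dmc1* (51.6 ± 9.42 CPM in WT and 43.1 ± 4.39 CPM in the mutant, SD, n = 3). In WT it stood at 45.4 FPKM, against a median of 10.8 over all genes. The sums thus say little about the other 5 genes.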
